A study of Mus musculus with 22 samples.

Results

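Transcript levels of 9 hepatocyte transcription factors (Hnf4a, Foxa1, Foxa2, Foxa3, Cebpa, Onecut1, Onecut2, Onecut3 and Prox1) were followed across 22 mouse liver tumours. They were found by their symbols in both deposited tables, and all 9 were present among the 24063 genes of the first table and the 24019 genes of the second. Mice of the C57BL/6 strain had received plasmids by hydrodynamic tail-vein injection, a fast injection of a large volume that makes hepatocytes take up DNA. MYC was part of every genotype, in both drivers and with either antigen form, no tumour was treated, and no age is given. In set 1, 2 tumours carried lucOS with β-catenin (bcat), 4 carried luc with β-catenin, 3 carried lucOS with p53 and 3 carried luc with p53. In set 2, 3 tumours carried lucOS with CTNNB1, the gene of β-catenin, 3 carried luc with CTNNB1, and 4 carried lucOS with p53, written there as sgp53, which names a guide RNA. Here luc stands for the enzyme luciferase, and lucOS for luciferase fused to peptides that serve as a model antigen for T cells. The labels do not give the promoters of the constructs, how p53 was lost in set 1 or whether the tumours of a group came from different animals. The p-values therefore measure the spread between these tumour samples, some of which may be technical.

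Hepatocytes owe their gene programme to a network of transcription factors that bind one another's genes. HNF4A is a nuclear receptor needed for most liver functions, the FOXA proteins open chromatin at liver enhancers, C/EBPα drives genes of mature metabolism, and the ONECUT proteins (ONECUT1 is also called HNF6) act early in liver and bile duct development. PROX1 is a homeobox factor of hepatocytes and of lymphatic endothelium, where it sets cell identity. β-Catenin is the effector of Wnt signalling, which sets the gene programme of hepatocytes around the central vein.

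Between 33.706 M and 54.873 M reads per tumour lay on genes in set 1, and between 33.551 M and 50.116 M in set 2. One library, luc p53 tumour 1 of set 1, had 8.90% of its reads on Rn45s, which codes for ribosomal RNA. Sample names in set 2 start with AL for p53 tumours 1 to 3 and with JAX for p53 tumour 4 and all 6 β-catenin tumours, so that the name and the driver largely coincide. Trp53 read 3296 to 4994 in the 6 β-catenin tumours of set 1, against 1423 to 2280 in the 6 p53 tumours, and in set 2 it read 2631 to 4405 in 6 β-catenin tumours, against 1345 to 2223 in 4 p53 tumours. Axin2, a feedback target of β-catenin, read 868 to 3586 in the β-catenin tumours of set 1, against 12.2 to 103 in the p53 tumours, and 349 or more in those of set 2, against at most 11.04. The hepatocyte marker Alb was high in all 22 tumours, at 70110 or more. These values are the authors' normalised read counts, scaled within a table, and levels are not set against each other across the 2 tables.

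Of the 9 genes, 7 had an entry in the RefSeq promoter table of GRCm38.p6, and the windows shown are the 250 bases before the start site. Shown are Cebpa, Onecut1 and Prox1, which were called in at least 1 comparison below, and the first start of Hnf4a, the most abundant of the 9 per length. The windows were searched on both strands for the E-box CACGTG, which MYC can bind, the TCF/LEF letters CTTTGAT, the FOXA letters TGTTTAC and the Onecut letters ATTGAT, and capitals mark a match.
Hnf4a, first of 2 starts, chr2:163506607-163506856, plus strand: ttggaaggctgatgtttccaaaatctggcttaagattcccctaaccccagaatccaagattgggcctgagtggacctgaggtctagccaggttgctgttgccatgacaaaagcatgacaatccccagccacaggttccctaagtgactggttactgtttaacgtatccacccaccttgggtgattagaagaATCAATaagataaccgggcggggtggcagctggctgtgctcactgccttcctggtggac
Cebpa, chr7:35119043-35119292, plus strand: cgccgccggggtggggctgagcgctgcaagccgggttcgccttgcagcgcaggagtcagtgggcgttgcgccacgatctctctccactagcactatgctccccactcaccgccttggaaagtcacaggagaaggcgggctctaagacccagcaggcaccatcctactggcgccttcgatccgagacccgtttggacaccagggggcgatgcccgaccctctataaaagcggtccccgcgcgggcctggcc
Onecut1, chr9:74861671-74861920, plus strand: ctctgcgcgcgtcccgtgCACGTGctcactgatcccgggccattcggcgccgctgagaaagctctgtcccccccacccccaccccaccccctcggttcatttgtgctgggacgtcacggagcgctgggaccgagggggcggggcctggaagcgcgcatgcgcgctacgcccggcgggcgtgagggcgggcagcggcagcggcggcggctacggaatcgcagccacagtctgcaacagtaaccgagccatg
Prox1, first of 2 starts, chr1:190170828-190171077, minus strand: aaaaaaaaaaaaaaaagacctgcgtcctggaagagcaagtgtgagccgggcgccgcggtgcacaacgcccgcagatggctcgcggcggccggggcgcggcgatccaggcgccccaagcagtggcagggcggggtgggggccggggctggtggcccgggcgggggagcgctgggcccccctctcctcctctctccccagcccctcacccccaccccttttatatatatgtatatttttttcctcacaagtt

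The capitals in the Onecut1 window are the E-box, 232 bases before the start, and those in the Hnf4a window are the Onecut letters on the other strand, 59 bases before it. The windows of Cebpa and Prox1 shown here held none of the letters searched. Over the 11 windows of the 7 genes, the E-box was found in 1, the FOXA letters in 1 (Foxa1, 141 bases before its start), the Onecut letters in 2 (the other being Foxa2, 213 bases before its first start) and the TCF/LEF letters in 0. Among all 32851 windows, these letters were found in 6.02%, 3.17%, 6.72% and 3.21%. A match of letters is a description of the window only.

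Hnf4a had the highest level per length. Per kb of transcript, its median signal was 6790 over the 12 tumours of set 1, followed by Cebpa with 4395, Foxa3 with 1377, Foxa2 with 738, Prox1 with 349, Foxa1 with 282, Onecut1 with 259, Onecut2 with 28.7 and Onecut3 with 0.834. In set 2 the order was the same but for Onecut1 (191 per kb) and Foxa1 (186 per kb), which changed places. Neighbours in this order overlapped over the tumours of each set with 1 exception: every Cebpa value per kb lay above every Foxa3 value (2194 to 8448 against 716 to 2184 in set 1, and 1472 to 7178 against 96.8 to 1168 in set 2). Lengths were those of GENCODE transcripts and were used for both tables. That of Onecut2 is long, at 16234 bases, which lowers its level per kb.

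The genes differed in how far they spread within a group. Foxa2 and Prox1 varied by at most 2.45-fold and 2.09-fold between the tumours of any 1 group, and Hnf4a and Cebpa by at most 2.38-fold and 2.57-fold. Onecut2 varied by 3.35-fold to 15.2-fold in the 7 groups. Single tumours stood low in other genes: Foxa1 read 115 in lucOS p53 tumour 1 of set 1, Onecut1 read 82.7 in luc β-catenin tumour 1 of set 1, and Foxa3 read 197 in luc β-catenin tumour 1 of set 2.

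**Figure D1:**
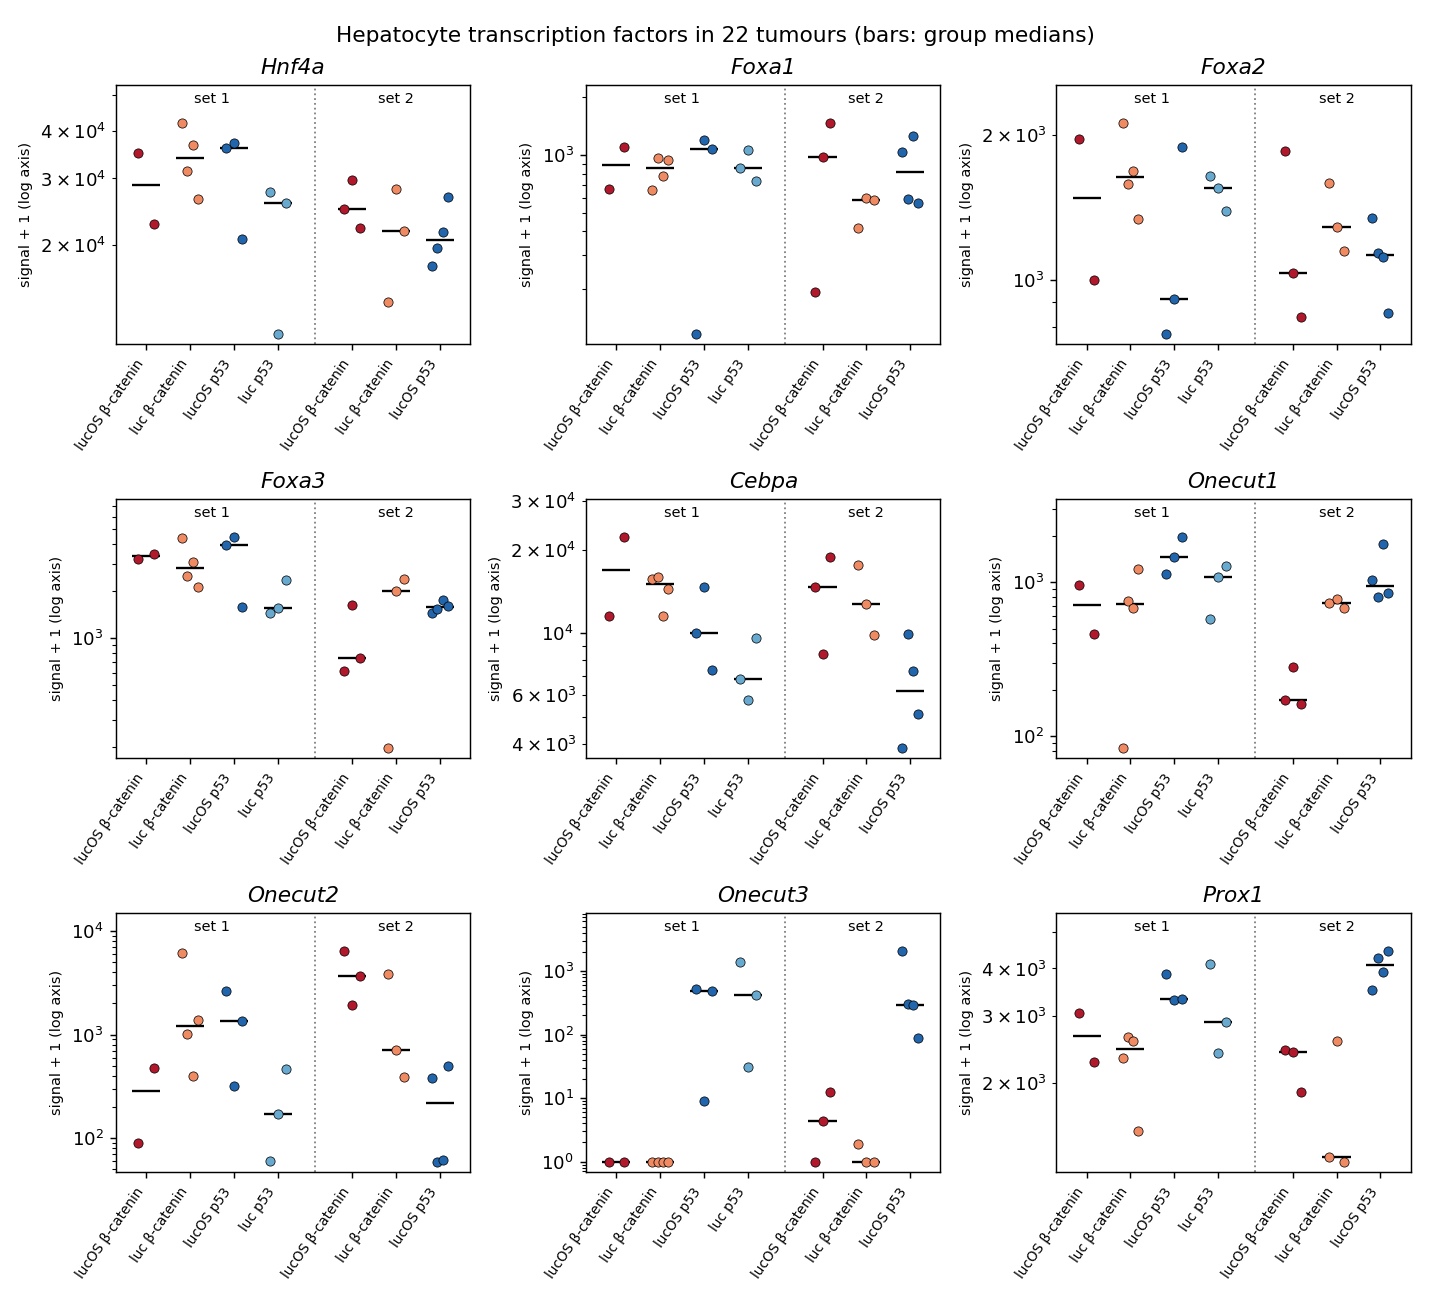
Signal plus 1 (log axis) of the 9 genes in each tumour, by genotype and set, with a bar at each group median. Onecut3 lies at the bottom of its panel (a signal of 0) in all 6 β-catenin tumours of set 1 and is at 86.7 or more in the 4 p53 tumours of set 2.

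Driver comparisons asked how the 9 genes differ between β-catenin and p53 tumours on the same MYC background. Differences are β-catenin minus p53 on the scale of log2(signal + 1), and a gene was called at a limma adjusted p under 0.05 over all genes tested. All 9 genes passed the filter on low values, Onecut3 in both sets only through the p53 tumours, so its calls are no independent support for a difference. Among luc tumours of set 1, 1 gene was called higher (Cebpa) and 1 lower (Onecut3), beside 5.93% of the 16108 genes tested called higher and 9.16% lower, 15.1% in all. Among lucOS tumours of set 1, 0 were called higher and 1 lower (Onecut3), beside 1.62% of genes called higher and 2.59% lower, 4.21% in all. Among lucOS tumours of set 2, 1 was called higher (Onecut2) and 3 lower (Onecut1, Onecut3 and Prox1), beside 6.08% of 15625 genes called higher and 10.9% lower, 17.0% in all. The last pair, luc β-catenin and lucOS p53 tumours of set 2, differ in driver and in antigen, which cannot be told apart, and here 0 were called higher and 2 lower (Onecut3 and Prox1), beside 5.82% of genes called higher and 10.2% lower, 16.1% in all. Both set 2 comparisons share the 4 p53 tumours. A count of 1 or 2 of 9 is near these background shares, and the statements below are about single genes.

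The median difference over all genes was -0.20, -0.15, -0.16 and -0.15 in these 4 comparisons in turn, and close to 0 under TMM scaling, so each called gene is also given relative to that median. With TMM the split of all calls turned round in set 1 luc tumours, with 1221 higher and 682 lower in place of 956 and 1475, in set 1 lucOS tumours, with 317 and 197 in place of 261 and 417, and in set 2 lucOS tumours, with 1317 and 1022 in place of 950 and 1706. In the pair of luc β-catenin and lucOS p53 tumours it was 1252 and 955 in place of 909 and 1600.

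**Figure D2:**
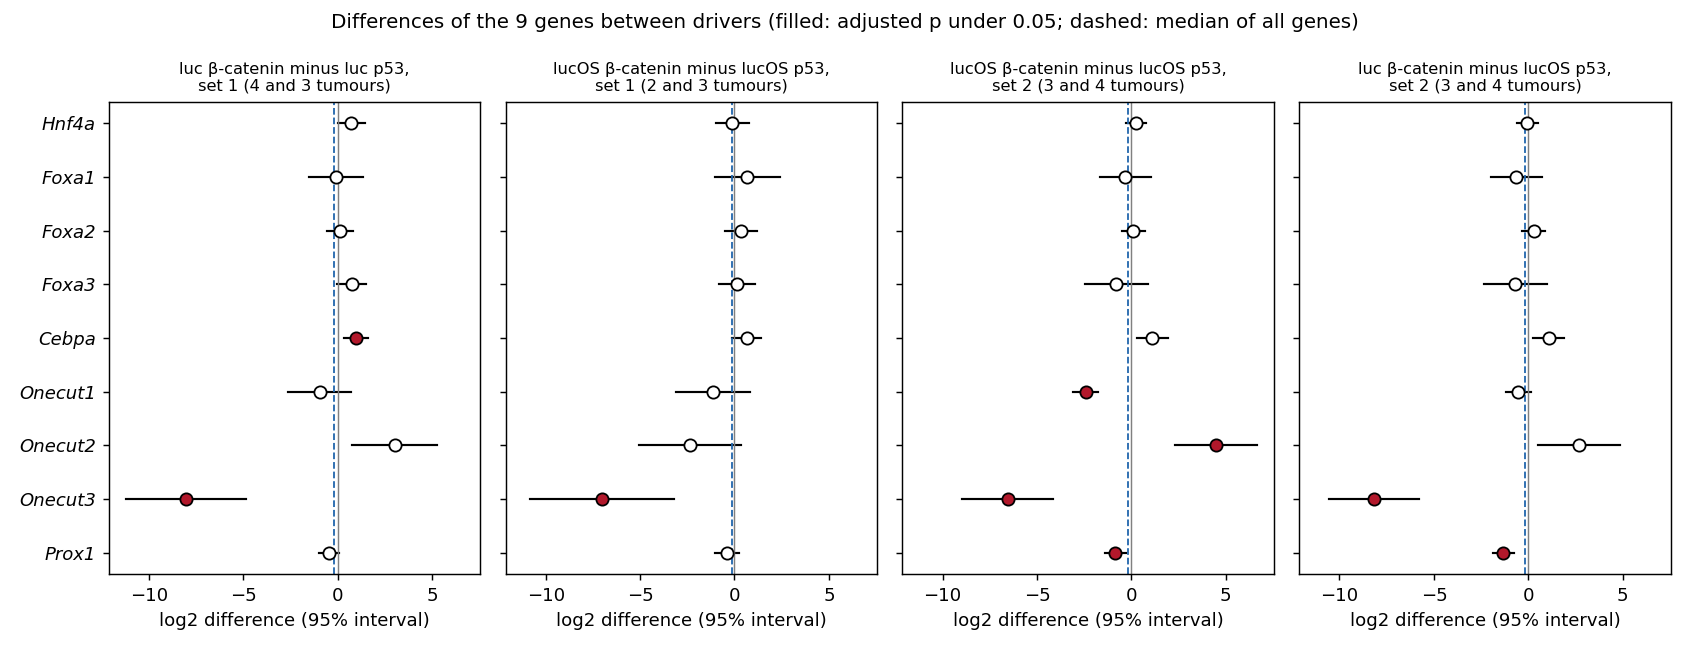
Log2 difference (β-catenin minus p53) of each gene with its 95% interval in the 4 driver comparisons. Filled points were called at an adjusted p under 0.05 and the dashed line is the median of all genes; Onecut3 is filled in all 4 panels, at -8.03, -7.03, -6.55 and -8.17.

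Onecut3 (chromosome 10, 80494835 to 80517276, plus strand, GRCm38), a paralogue known from the nervous system, was the gene that differed most: it was found in every p53 tumour and was absent or nearly so with β-catenin. In set 1 its signal was 0 in both lucOS and all 4 luc β-catenin tumours, against 518, 7.97 and 480.4 in lucOS p53 tumours and 1379.6, 29.5 and 425 in luc p53 tumours. In set 2 it was 0, 3.32 and 11.5 in lucOS β-catenin tumours and 0.865, 0 and 0 in luc β-catenin tumours, against 2063.5, 297, 293 and 86.7 in lucOS p53 tumours. No β-catenin tumour overlapped with a p53 tumour of its set, though the p53 tumours ran over a wide range. Groups without overlap in this direction were common, at 23.2% and 24.3% of all genes in the luc and lucOS comparisons of set 1, and 22.5% and 22.8% in the lucOS comparison and the last pair of set 2. Fewer cells that express a gene and less RNA per cell cannot be told apart in such bulk tumours.

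Because a count of 0 allows up to 3 reads per library, the mean of Onecut3 was at least 214-fold lower in the luc β-catenin tumours of set 1 than in luc p53 tumours, and at least 98-fold lower in the lucOS β-catenin tumours than in lucOS p53 tumours. For the lowest p53 tumour of the lucOS comparison, with a signal of 7.97, the bound is 2.34-fold. In set 2 a single read was counted over the 3 luc β-catenin tumours, and the p53 mean was 2380 times theirs, with a 95% counting interval of 412 to 90700. The fitted differences were -8.03 ± 1.46 (SE, adjusted p = 0.00689, -7.83 relative to the median gene) among luc tumours and -7.03 ± 1.74 (adjusted p = 0.0484, -6.88) among lucOS tumours of set 1. In set 2 they were -6.55 ± 1.08 (adjusted p = 0.00662, -6.39) among lucOS tumours and -8.17 ± 1.08 (adjusted p = 0.00276, -8.02) for luc β-catenin against lucOS p53 tumours. Fitted values of a gene at 0 depend on the pseudocount, and in both sets Onecut3 reached the test only through the group in which it is high. The call among lucOS tumours of set 1, with 2 against 3 tumours, was lost without p53 tumour 1 or 3 or either β-catenin tumour (adjusted p up to 0.185), under a pseudocount of 5 (0.1), with no filter (0.0561), with TMM (0.0544), in edgeR (0.121) and with the 2 groups fitted alone (0.152). The other 3 calls held without each single tumour.

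Onecut2, a paralogue that can stand in for ONECUT1 during liver development in mice, was higher with β-catenin among lucOS tumours of set 2. It read 6448.2, 1927.1 and 3648.5 in lucOS β-catenin tumours of set 2 and 3897.7, 712 and 384 in luc β-catenin tumours, against 375, 58.0 and 59.7 and 494 in lucOS p53 tumours 1 to 4. All 3 lucOS β-catenin tumours lay above all 4 p53 tumours, while the luc β-catenin tumours reached down into them (groups did not overlap in this direction for 10.3% of all genes in the lucOS comparison). The difference among lucOS tumours was 4.47 ± 0.97 (SE, n = 3 and 4, limma adjusted p = 0.0168, 4.63 relative to the median gene), a 22.2-fold higher level, and that of luc β-catenin against lucOS p53 tumours was 2.67 ± 0.97 (adjusted p = 0.0848). The lucOS call was just lost without β-catenin tumour 3 (adjusted p = 0.0512), and DESeq2 called the luc β-catenin pair as well (2.92, adjusted p = 0.00741).

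In set 1 the Onecut2 difference had opposite signs with and without the antigen. Onecut2 read 89.0 and 473 in lucOS β-catenin tumours, against 2647.5, 318 and 1364.8 in lucOS p53 tumours. It read 6098.7, 1019 and 400.1 and 1391 in luc β-catenin tumours 1 to 4, against 58.4, 170.2 and 459 in luc p53 tumours. Each pair of groups overlapped in single tumours. The difference was -2.34 ± 1.23 (adjusted p = 0.278) among lucOS tumours and 3.03 ± 1.03 (adjusted p = 0.0681) among luc tumours, where DESeq2 called it (3.47, adjusted p = 0.00238). The test of the difference itself, the driver by antigen interaction, gave -5.37 ± 1.61 with an unadjusted p of 0.00633 and an adjusted p of 1.0, so limma did not call it. The set 2 lucOS difference of 4.47 has the sign of the luc tumours of set 1, and a difference between the sets was not tested because the tables were scaled separately.

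Onecut1 (chromosome 9, 74861921 to 74891781, plus strand), the member known as HNF6, was lower in the lucOS β-catenin tumours of set 2. Its signal there was 170.3, 281 and 161, and it was 735, 781 and 678 in luc β-catenin tumours, against 1032.2, 806 and 1765 and 853 in lucOS p53 tumours 1 to 4. The lucOS β-catenin tumours lay below all others, and the luc β-catenin tumours fell just short of the lowest p53 tumour. Groups did not overlap in this direction for 22.5% of all genes in the lucOS comparison and 22.8% in the last pair. The lucOS difference was -2.41 ± 0.30 (SE, n = 3 and 4, limma adjusted p = 0.00244, -2.25 relative to the median gene), a 5.33-fold lower level that was called without each single tumour. For luc β-catenin against lucOS p53 tumours it was -0.53 ± 0.30 (adjusted p = 0.24).

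In set 1 Onecut1 was not called. It read 963 and 461 in lucOS β-catenin tumours, against 1126.2, 1456.7 and 1965.8 in lucOS p53 tumours, with a difference of -1.15 ± 0.90 (adjusted p = 0.475). Luc β-catenin tumours read 82.7, 757 and 680.3 and 1217.2, against 572, 1084.8 and 1274.3 in luc p53 tumours, with a difference of -0.95 ± 0.75 (adjusted p = 0.404) that was -0.11 without β-catenin tumour 1. Of the 4113 exon bases of Onecut1, 2171 also belong to the lincRNA Gm20649 on the same strand, and reads there cannot be assigned to either gene.

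Read per kb, the make-up of the family varied from tumour to tumour. Onecut1 made up 9.78% to 37.3% of the family in lucOS β-catenin tumours of set 2 and 43.6% to 87.9% in luc β-catenin tumours, against 36.4% to 87.3% in lucOS p53 tumours. Onecut2 made up 62.3% to 90.2% and 12.1% to 56.4% in the same β-catenin groups, against 0.719% to 11.5% in the p53 tumours. In set 1, Onecut2 reached 94.7% in luc β-catenin tumour 1, the tumour with the lowest Onecut1 level, and Onecut3 reached 66.1% in a luc p53 tumour. The sum over the family ran from 190.4 to 440.2 per kb in lucOS β-catenin tumours of set 2 and from 195 to 426 in luc β-catenin tumours, against 264 to 716 in lucOS p53 tumours, so that the groups overlapped. In set 1 the lucOS sums did not overlap, at 146 to 249 with β-catenin against 389 to 681 with p53. Of all single genes, 24.3% did not overlap in this direction in that comparison of 2 and 3 tumours. The luc sums of set 1 overlapped, at 197 to 397 with β-catenin against 291 to 439 with p53.

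**Figure D3:**
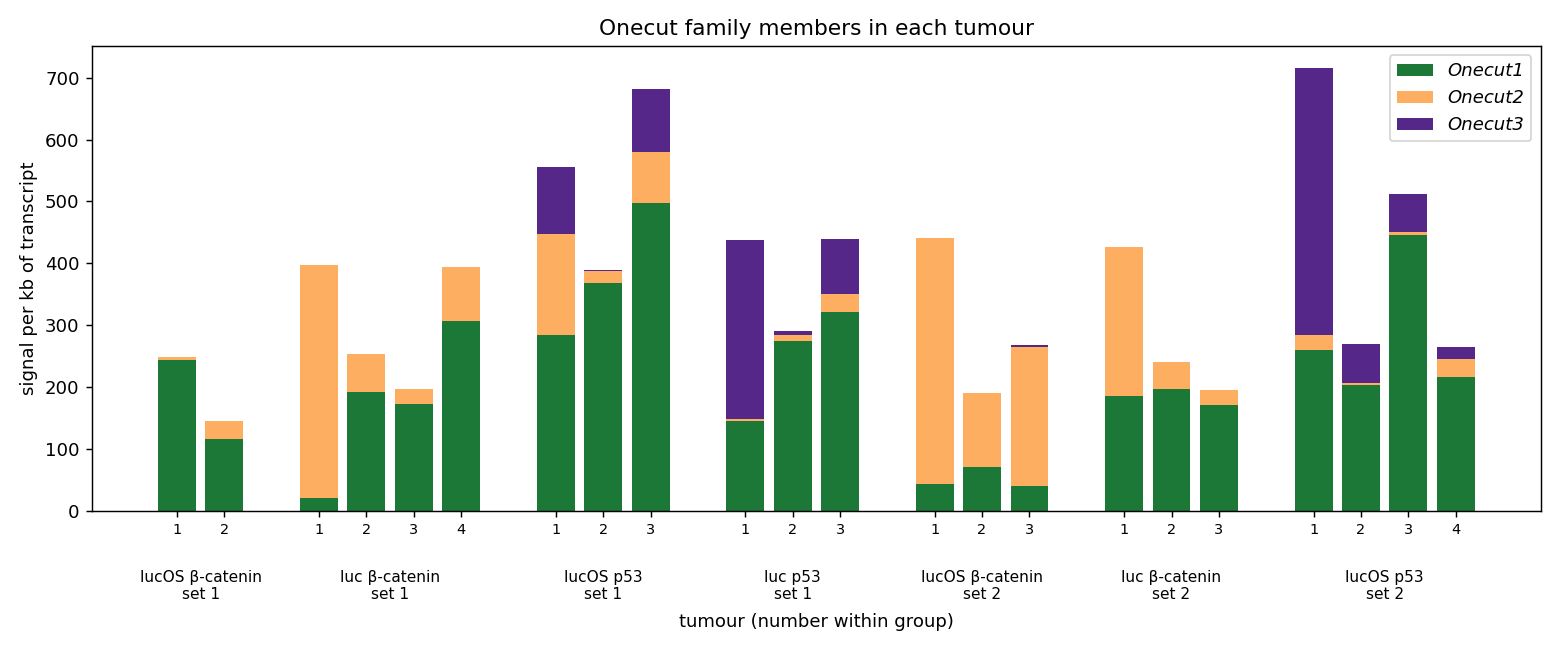
Signal per kb of transcript of Onecut1, Onecut2 and Onecut3, stacked, in each of the 22 tumours by group and set. Onecut3 is seen in p53 tumours, and Onecut2 makes up most of the bar in luc β-catenin tumour 1 of set 1, in all 3 lucOS β-catenin tumours of set 2 and in luc β-catenin tumour 1 of set 2.

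Cebpa (chromosome 7, 35119293 to 35121928, plus strand), which encodes C/EBPα, was 1.97-fold higher with β-catenin among luc tumours of set 1. It read 15639, 15920, 11511 and 14423 in luc β-catenin tumours, against 6828.7, 5761.1 and 9622.2 in luc p53 tumours, and the groups did not overlap, as for 10.9% of all genes in this direction. The difference was 0.98 ± 0.29 (SE, n = 4 and 3, limma adjusted p = 0.0432, 1.18 relative to the median gene). This call was lost with no filter (adjusted p = 0.0509) and without any 1 tumour other than p53 tumour 3 (adjusted p up to 0.144). Among lucOS tumours of set 1, Cebpa read 11573 and 22184 with β-catenin, against 10038, 14616 and 7351.3 with p53, and the groups overlapped (0.64 ± 0.34, adjusted p = 0.285).

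In set 2 Cebpa read 14616, 8424.9 and 18850 in lucOS β-catenin tumours and 17624, 12757 and 9849.7 in luc β-catenin tumours, against 3865.9, 9935.9 and 7305.7 and 5118.6 in lucOS p53 tumours 1 to 4. The highest p53 tumour overlapped with the lowest tumour of either β-catenin group. The differences of 1.10 ± 0.37 (adjusted p = 0.0642) and 1.08 ± 0.37 (adjusted p = 0.0693) missed the threshold. The first was called with TMM (adjusted p = 0.0476), and DESeq2 called both (adjusted p = 0.0101 and 0.0158). An antisense gene, Gm45091, shares 51 of the 2636 exon bases of Cebpa.

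Prox1 (chromosome 1, 190118035 to 190170714, minus strand) was lower with β-catenin in set 2. It read 2437.8, 2409.7 and 1894.2 in lucOS β-catenin tumours and 1272.1, 2582.1 and 1237.6 in luc β-catenin tumours, against 3504.5, 4269.7 and 3915 and 4448.5 in lucOS p53 tumours 1 to 4. All 6 β-catenin tumours lay below all 4 p53 tumours. Groups lay apart in this direction for 22.5% of all genes in the lucOS comparison and 22.8% in the last pair. The difference was -0.85 ± 0.25 among lucOS tumours (limma adjusted p = 0.0433, -0.69 relative to the median gene), and -1.33 ± 0.25 for luc β-catenin against lucOS p53 tumours (adjusted p = 0.0101, -1.18). The lucOS call was lost without any 1 tumour (adjusted p from 0.0687 to 0.131), with no filter (0.0511), with TMM (0.0807) and in edgeR (0.0865), whereas the other held without each tumour. The antisense gene Prox1os shares 133 of the 8390 exon bases of Prox1.

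Prox1 was not called in set 1. It read 3049.2 and 2271.1 in lucOS β-catenin tumours, against 3874.7, 3300.8 and 3330.6 in lucOS p53 tumours (-0.41 ± 0.29, adjusted p = 0.427). In luc tumours it read 2320.7, 2630.4, 2575.3 and 1488 with β-catenin, against 4103.5, 2387.5 and 2888.4 with p53 (-0.47 ± 0.24, adjusted p = 0.204). The luc groups overlapped in 1 p53 tumour and the lucOS groups did not overlap, as for 24.3% of all genes in this direction. Prox1 also marks lymphatic endothelium, for which 6 other markers were listed. Their summed signal in set 2 was 361 to 1672 in lucOS β-catenin tumours and 273 to 1978 in luc β-catenin tumours, against 305 to 462 in lucOS p53 tumours. Ccl21a, one of the 6, was at 0 in all 22 tumours and Mmrn1 stayed under 10 in set 2. Of the 4 that passed the filter in set 2, 0 were called lower and 1 was called higher, beside 6.08% and 5.82% of all genes called higher. This was Reln, which stellate cells also express (5.02 and 4.92 in the 2 set 2 comparisons, adjusted p = 0.0176 and 0.0193). Of the 5 that passed the filter in set 1, 0 were called between drivers. Of 7 blood endothelium markers, 2 were called lower among lucOS tumours of set 2, beside 10.9% of all genes. These were Pecam1 (-1.08, adjusted p = 0.0474) and Cdh5 (-1.39, adjusted p = 0.0272). In the last pair 1 was called lower (Cdh5, -1.28, adjusted p = 0.0377), beside 10.2% of all genes. There 1 was called higher (Clec4g, 3.88, adjusted p = 0.0313), beside 5.82% of all genes. In the driver comparisons of set 1, 0 of the 7 markers were called. In set 2 the sum of the 7 was 2772 to 5205 in lucOS β-catenin tumours and 2895 to 5938 in luc β-catenin tumours, against 6044 to 8659 in lucOS p53 tumours. In set 1 it was 5363 to 15420 in lucOS β-catenin tumours, against 4980 to 6007 in lucOS p53 tumours. It was 3797 to 7840 in luc β-catenin tumours of set 1, against 2319 to 11140 in luc p53 tumours. The part of endothelial cells in the Prox1 values was not tested.

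Set 2 holds 1 p53 tumour whose name begins with JAX, and its values beside the 6 β-catenin tumours of that name are the closest the data come to a comparison within 1 kind of name. That tumour, p53 tumour 4, was the highest of the p53 group in Prox1 and Onecut2 and the lowest in Onecut3. With the JAX tumours alone, the differences among lucOS tumours were 2.85 for Onecut2 (adjusted p = 0.57), -2.10 for Onecut1 (0.165) and -0.99 for Prox1 (0.577), and that of Prox1 for luc β-catenin against lucOS p53 was -1.48 (0.357). Onecut3 did not pass the filter there, with 86.7 in the p53 tumour and 0 to 11.5 in the 6 β-catenin tumours. In these fits 23 and 27 of 15083 genes were called, and the lone p53 tumour is assumed to vary like the other groups.

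Hnf4a lies on the plus strand of chromosome 2, at 163506808 to 163572910. No comparison called it. It read 35128 and 22679 in lucOS β-catenin tumours of set 1, against 36111, 37360 and 20752 in lucOS p53 tumours. It read 42011, 31463, 36706 and 26549 in luc β-catenin tumours, against 27692, 11624 and 25892 in luc p53 tumours. In set 2 it read 24851, 29811 and 22207 in lucOS β-catenin tumours and 14165, 28090 and 21731 in luc β-catenin tumours, against 17588, 19688, 21651 and 26867 in lucOS p53 tumours. The groups overlapped in each pair. The differences were 0.73 (95% interval -0.00 to 1.47, adjusted p = 0.156) among luc tumours, -0.11 (-0.99 to 0.78, 0.905) among lucOS tumours of set 1, 0.26 (-0.27 to 0.80, 0.465) among lucOS tumours of set 2 and -0.05 (-0.58 to 0.49, 0.912) in the last pair. Under TMM the negative values turned positive, at 0.04 and 0.10. The intervals reach 1.47 upward and -0.99 downward on the log2 scale, so a p over the threshold does not show equal levels.

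None of the FOXA genes was called between drivers. Foxa1 read 658 to 1100 in the 6 β-catenin tumours of set 1, against 115 to 1200.8 in the 6 p53 tumours, and 191 to 1465.5 in the 6 β-catenin tumours of set 2, against 561 to 1252.6 in the 4 p53 tumours. Its differences ran from -0.63 (adjusted p = 0.504) to 0.69 (0.64), and that of luc tumours changed sign with the scaling (-0.08, and 0.11 under TMM). Foxa2 read 1001.6 to 2117.9 with β-catenin, against 772 to 1889.4 with p53 in set 1, and 839 to 1858.6 against 854 to 1348 in set 2. Its differences were small and positive in the 4 comparisons, from 0.09 (adjusted p = 0.835) to 0.35 (0.623).

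Foxa3 was the most abundant FOXA gene per length by its group median in 6 of the 7 groups, with 38.8% to 83.0% of the family sum in the tumours of set 1 and 9.91% to 61.8% in those of set 2. It read 2134 to 4417.1 in the 6 β-catenin tumours of set 1, against 1458.4 to 4449.8 in the 6 p53 tumours. In set 2 it read 612, 1637.7 and 743 in lucOS β-catenin tumours and 197, 2000.3 and 2378.9 in luc β-catenin tumours, against 1446.5, 1540.1, 1752.1 and 1610 in lucOS p53 tumours, which lay close together. The differences were 0.74 ± 0.36 among luc tumours (adjusted p = 0.178), 0.14 ± 0.43 (0.88) and -0.80 ± 0.75 (0.475) among lucOS tumours of set 1 and set 2, and -0.69 ± 0.75 (0.549) in the last pair. The last value was 0.46 without luc β-catenin tumour 1, the tumour in which Foxa3 and Hnf4a were lowest in set 2.

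The antigen comparisons, lucOS minus luc with the driver held, called 0 of the 9 genes and 0.0% of all genes in limma. At an unadjusted p under 0.05 there were 722 genes with p53 in set 1, 222 with β-catenin in set 1 and 288 with β-catenin in set 2, and 436 in the interaction. EdgeR called 0 genes in the 4 tests, and DESeq2 called 9, 18, 10 and 17. Onecut2 had the largest differences of the 9 in set 1, at 2.65 ± 1.10 with p53 (adjusted p = 0.952, unadjusted 0.0345) and -2.72 ± 1.17 with β-catenin (adjusted p = 1.0, unadjusted 0.0393).

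Onecut1 was lower with the antigen in the β-catenin tumours of set 2 by the per-tumour values given above, 161 to 281 in lucOS tumours, against 678 to 781 in luc tumours. The groups did not overlap, as was so for 2.36% of all genes in that direction. The difference of -1.88 ± 0.32 had an unadjusted p of 0.000166 but a limma adjusted p of 1.0, and DESeq2 called it (-1.83, adjusted p = 0.00344). In the β-catenin tumours of set 1 the same difference was 0.48 ± 0.85 (adjusted p = 1.0). Outside the ONECUT genes, the antigen differences ran from -0.71 (Foxa1, with p53) to 0.79 (Foxa3, with p53). The intervals include differences of 2-fold or more for Foxa1 in all 3 comparisons. With p53 they also did so for Hnf4a (up to 1.37), Foxa2 (down to -1.22), Foxa3 (up to 1.64) and Cebpa (up to 1.18). With β-catenin in set 2 that of Prox1 reached 1.08.

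Other genes of the hepatocyte programme were read from lists that share members (Pck1, Tat and Alb stand in several). Of 20 other liver-enriched transcription factors, 2 rose among luc tumours of set 1. These were Tbx3, a T-box factor downstream of β-catenin in liver (4005 ± 1460 with β-catenin against 125 ± 33.2 with p53, SD, log2 4.93, adjusted p = 0.000742), and Rxra, the partner of many nuclear receptors (1.09, adjusted p = 0.0433). Shares of all genes called higher are those given above (5.82% to 6.08%, and 1.62% among lucOS tumours of set 1). Among lucOS tumours, 1 of the 20 rose in set 1 (Tbx3, 3.74, adjusted p = 0.0213), and 2 rose in set 2 (Tbx3, 3.58, and Atf5, 1.38, adjusted p = 0.0158 and 0.0114). In the last pair 3 rose (Tbx3, 3.58, Atf5, 1.84, and Cebpb, 1.03, adjusted p = 0.0198). The list medians in these 4 comparisons were 0.69, 0.55, 0.35 and 0.31, beside medians of all genes from -0.20 to -0.15.

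Genes known as targets of the factors rose in part among luc tumours of set 1. Beside 5.93% of all genes called higher there, 5 of 18 HNF4A targets rose, with Apoc3, an apolipoprotein, at 4.47 (adjusted p = 0.00496) and Pck1, the gluconeogenic enzyme, at 4.17 (adjusted p = 0.0133), although Hnf4a itself was not called. Of 10 C/EBPα targets 5 rose, among them the liver glycogen synthase Gys2 (4.12, adjusted p = 0.00779) and haptoglobin, Hp (3.11, adjusted p = 0.00144). Of 8 FOXA targets 4 rose, among them the serum protein gene Alb (1.58, adjusted p = 0.021). The medians of the 3 lists were 1.05, 1.34 and 1.48.

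Among lucOS tumours of set 1, beside 1.62% of all genes, 0 of 18, 1 of 10 (Hp, 2.28, adjusted p = 0.0338) and 0 of 8 rose. In set 2 lucOS tumours, beside 6.08% of all genes, 1 of 18, 2 of 10 and 1 of 8 rose, from the genes Tat, an amino acid degrading enzyme (3.36, adjusted p = 0.0155), and Gys2 (4.40, adjusted p = 0.012). In the last pair, beside 5.82% of all genes, 1, 3 and 1 rose, from Tat (2.92), Gys2 (4.52) and Hp (2.54). A count of 1 of 18 is near these shares of all genes. No target was called lower in the 4 driver comparisons. Afp, the fetal serum protein α-fetoprotein, had differences of -2.72 among lucOS tumours of set 1 (adjusted p = 0.305) and of -4.34 and -2.98 in the set 2 comparisons (adjusted p = 0.215 and 0.4). Among luc tumours of set 1 it went the other way, at 0.84 (adjusted p = 0.676). The value of -4.34 went with similar mean signals, 19450 with β-catenin and 20130 with p53.

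**Figure D4:**
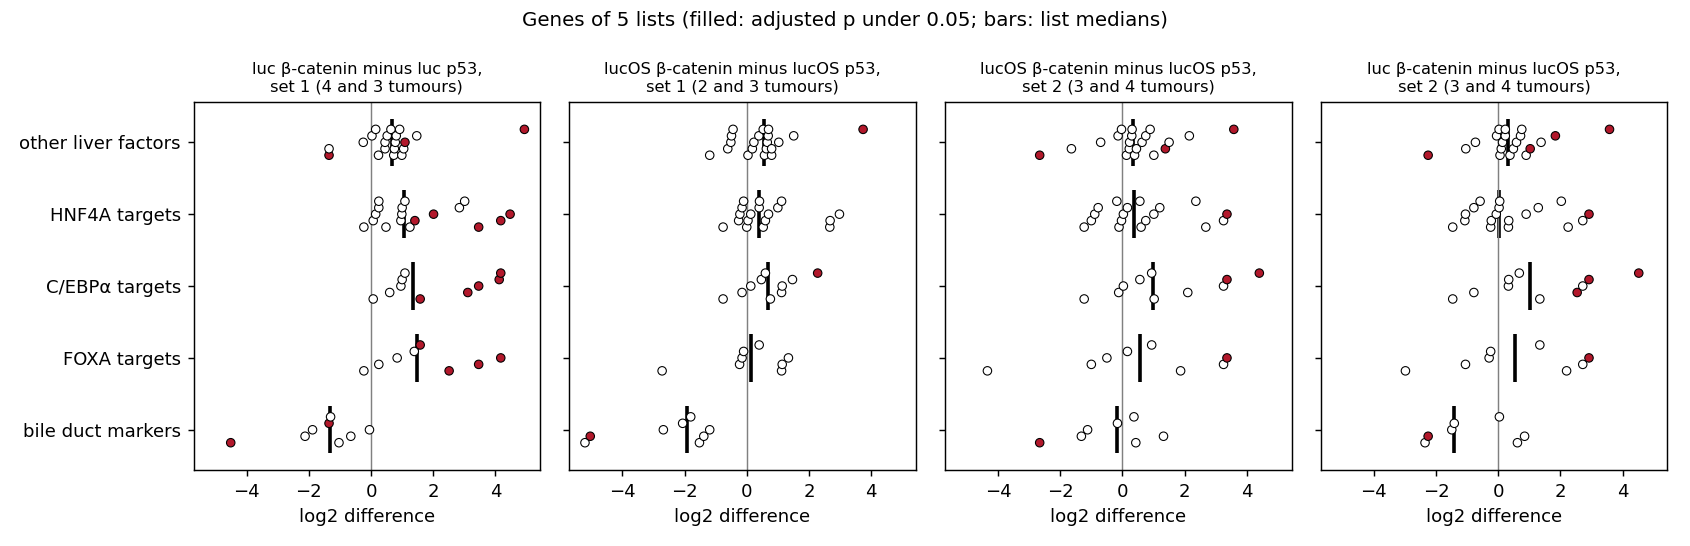
Log2 differences (β-catenin minus p53) of the genes of 5 lists that passed the filter, in the 4 driver comparisons; filled points were called and bars are list medians. The C/EBPα targets have medians of 1.34, 0.68, 0.98 and 1.01 from left to right, and the bile duct markers -1.32, -1.93, -0.16 and -1.41.

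Markers of other cells also differed between drivers, and their part in the results above was not tested. The ONECUT factors are used in bile duct, neurons and pancreas as well. The 8 bile duct markers summed to 1106 to 2736 in lucOS β-catenin tumours of set 1 and 1342 to 5000 in luc β-catenin tumours, against 2778 to 17500 in lucOS p53 and 4130 to 18790 in luc p53 tumours. In set 2 the sums were 1789 to 3205 in lucOS β-catenin and 1224 to 3399 in luc β-catenin tumours, against 2603 to 9250 in lucOS p53 tumours. Sox9, their transcription factor, fell in set 1 (-4.51 in luc, adjusted p = 0.0179, and -5.03 in lucOS tumours, adjusted p = 0.0488).

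Neuronal and endocrine markers were low throughout: the 7 summed to 23.9 to 48.0 in the β-catenin tumours of set 2, against 68.7 to 226 in the p53 tumours, and to 33.1 to 51.1 against 40.7 to 345 in set 1. Insm1, Neurod1 and Snap25 stayed under 10 in all 22 tumours, and Chga was lower with β-catenin in set 2 (-4.77, adjusted p = 0.0259, and -5.77, adjusted p = 0.0139). Of the 6 pancreas markers, Pdx1, Ptf1a, Prss1 and Nkx6-1 stayed under 10 in all tumours, Ptf1a and Prss1 at 0. Cpa1 reached 14.9, and Cela1 read 112 to 1660 over the tumours. Of 7 leukocyte markers, 5 fell with β-catenin among lucOS tumours of set 2 and 3 in the last pair, beside 10.9% and 10.2% of all genes called lower, while 0 were called in set 1. Of 7 fetal liver genes, 3 fell among luc and 1 among lucOS tumours of set 1, and 2 and 3 in the set 2 comparisons, beside 9.16%, 2.59%, 10.9% and 10.2% of all genes called lower, with Trim71, an RNA-binding protein of early development, called in all 4 (from -8.24 to -6.20).

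Genes closest in pattern were sought by the root mean square difference of log2(signal + 1), each gene centred on its mean over the 12 tumours of set 1. For Cebpa these were Slc11a2 (0.184), Pex16 (0.203) and Dhrs3 (0.235), beside a median of 0.799 over all 16107 other genes, and over the 10 tumours of set 2 the same differences were 0.349, 0.429 and 0.415. For Onecut3 they included Nkx1-1 (0.818) and Pou3f1 (1.2), beside a median of 4.14, with 1.23 and 0.977 in set 2, where Pou3f1 was the closest of all genes. For Hnf4a the closest was Habp4 (0.138, and 0.343 in set 2, where it ranked 2358). For Foxa3 it was Tacc2 (0.233, and 1.22 in set 2), for Foxa1 Wdr44 (0.442, and 1.08), for Foxa2 Mboat7 (0.178, and 0.357), for Onecut1 6720489N17Rik (0.44, and 1.19), for Onecut2 St8sia3 (1.03) and for Prox1 4930413G21Rik (0.173, and 0.724). Among the 15625 genes kept in set 2, Tacc2 ranked 10376, Wdr44 10936, Mboat7 970, 6720489N17Rik 9408 and 4930413G21Rik 7813. Most of these genes were thus not near in pattern in set 2, and St8sia3 was not among the genes kept there.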

How the data were processed

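RNA sequencing libraries were made from total RNA of 22 liver tumours by TruSeq preparation; the labels' protocols do not give the strand, so that reads of overlapping antisense genes cannot be told apart. The submitters' processing notes name TopHat2, featureCounts, DESeq2 and mm10, with no versions. The authors deposited 1 table per set with a normalised signal. All values were whole numbers of reads divided by 1 factor per sample (100% within 0.01 reads), and these reads gave depths, floors (3 reads per library, counting error only) and the count models. Where set 1 lists several transcripts of a gene, the one highest on average was used.

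Log2(signal + 1) was fitted with limma 3.58.1 (R 4.3.3, trend option), with every group of a set in the fit. Genes needed a signal of 10 or more in 2 tumours of set 1 or 3 tumours of set 2. P-values were adjusted by Benjamini-Hochberg over all genes, and adjusted p under 0.05 was a call. Alternatives were a pseudocount of 5, no filter, TMM, edgeR 4.0.16, DESeq2 1.42.0, the mean over transcripts, the groups of a pair alone, tumours named JAX alone, and leaving out each tumour. The fit was also run on simulated reads with known changes. The simulation gave all genes the same spread, so it does not show how calls behave for genes of wider spread. Intervals are at 95%.

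All 9 members were named in every comparison, together with up to 4 called genes per list and direction, markers of other cells that moved with a result, and the 3 genes nearest in pattern. Some genes that this rule would name are not reported here. Members and lists were chosen with earlier results of these data known. Tumours are numbered within a group in the order of their entries. Positions are on GRCm38, the assembly of mm10, and promoter sequences are from RefSeq.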

Additional observations from a re-analysis of the deposited data

Results flagged for a closer look

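Onecut3 in the lucOS p53 tumours of set 2 held 1 tumour far above the rest: tumour 1 read 2063.5, against 297, 293 and 86.7 in tumours 2 to 4. The gap to its nearest neighbour took up 0.894 of the range of the group, above Dixon's critical value of 0.829 for 4 samples. Of the 17 pairs of gene and group that could be tested in this way it was the only one past that value, and chance alone would flag about 1 in 20. Without this tumour the β-catenin minus p53 differences of Onecut3 stayed called.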

How the results depend on the processing

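Counts of members called kept within 1.5 times in most alternatives. Among luc tumours of set 1 the count of 2 became 1 with no filter, and ran from 1 to 2 without single tumours. Among lucOS tumours of set 1 the count of 1 became 0 with a pseudocount of 5, no filter, TMM, edgeR or the 2 groups alone, and ran from 0 to 1 without single tumours. Among lucOS tumours of set 2 the count of 4 became 0 with JAX tumours alone and ran from 2 to 4 without single tumours, with 2 left without β-catenin tumour 3. For luc β-catenin against lucOS p53 tumours the count of 2 became 4 in DESeq2 and 0 with JAX tumours alone. For the antigen with β-catenin in set 2, DESeq2 gave 1 in place of 0. Counts over all genes moved more: among lucOS tumours of set 1, 678 became 418 (edgeR), 2053 (DESeq2) and 18 (the 2 groups alone), and 76 to 951 without single tumours. JAX tumours alone gave 23 in place of 2656 and 27 in place of 2509, and DESeq2 gave 3806 in place of 2509. Without single tumours, 2431 became 812 to 1964, 2656 became 1127 to 2209 and 2509 became 914 to 2024. With no filter, 1 gene was called for the antigen with β-catenin in set 1. Where a cause is not part of the alternative itself (fewer tumours or genes), the cause was not tested.

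Uncalled genes changed sign as follows. Foxa1 among luc tumours of set 1 (-0.08) was 0.11 with TMM and edgeR and 0.10 in DESeq2. Hnf4a among lucOS tumours of set 1 (-0.11) was 0.042, 0.029 and 0.034 in the same order, and for luc β-catenin against lucOS p53 tumours (-0.05) it was 0.10, 0.13 and 0.13. Foxa1 among lucOS tumours of set 2 (-0.32) was 0.19 in edgeR and DESeq2 and 0.21 with JAX tumours alone, where Hnf4a (0.26) was -0.08. Foxa3 for luc β-catenin against lucOS p53 tumours (-0.69) was 0.07 in edgeR and DESeq2. Leaving out single tumours gave signs of both kinds in these ranges: for the driver difference among luc tumours of set 1, Foxa1 -0.21 to 0.06; for the driver difference among lucOS tumours of set 1, Hnf4a -0.42 to 0.21, Foxa1 -0.41 to 1.28, Foxa2 -0.14 to 0.84, Foxa3 -0.33 to 0.41; for the driver difference among lucOS tumours of set 2, Foxa1 -0.90 to 0.56, Foxa2 -0.24 to 0.33; for luc β-catenin against lucOS p53 tumours, Hnf4a -0.27 to 0.22, Foxa3 -1.33 to 0.46; for the antigen difference with p53, Foxa1 -1.30 to 0.39, Onecut3 -2.55 to 0.93; for the antigen difference with β-catenin in set 1, Hnf4a -0.57 to 0.06, Foxa1 -0.31 to 0.41, Foxa2 -0.73 to 0.24, Cebpa -0.30 to 0.64, Onecut1 -0.36 to 1.01; for the antigen difference with β-catenin in set 2, Foxa1 -0.27 to 1.19, Foxa2 -0.52 to 0.06, Foxa3 -1.27 to 0.53, Cebpa -0.23 to 0.35; for the interaction, Foxa1 -0.33 to 1.35, Foxa2 -0.26 to 0.71, Cebpa -0.80 to 0.13, Onecut1 -1.04 to 0.33, Onecut3 -0.93 to 2.55, Prox1 -0.15 to 0.27. The called differences kept their sign in all alternatives that gave a value. No paired analysis was possible because the labels give the tumours no replicate numbers. Depth limits Onecut3 with β-catenin, where 0 reads allow up to 3.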

Other observations

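After the values had been seen, the tumours with the highest Onecut2 level of their group were looked up for the other genes. In 6 of the 7 groups that tumour had the lowest Foxa1 level of its group, the exception being the lucOS β-catenin tumours of set 1. In lucOS β-catenin tumour 1 of set 2, Onecut2 read 6448.2 and Foxa1 191, against Foxa1 values of 975.2 and 1465.5 in the other tumours of the group. In lucOS p53 tumour 1 of set 1, Onecut2 read 2647.5 and Foxa1 115, against 1200.8 and 1078.6. For the other genes the same count was 4 of 7 (Foxa2), 3 (Onecut1), 2 (Hnf4a, Foxa3 and Onecut3), 1 (Prox1) and 0 (Cebpa). The groups hold 2 to 4 tumours, Foxa1 was chosen because it stood out, and no test was made.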
